A study of Mus musculus with 30 samples.

Results

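The hypoxia and angiogenic signal genes Hif1a, Epas1, Vegfa, Vegfb, Egln3, Egln1, Adm, Ddit4, Angpt1 and Apln were looked up by gene symbol in the gastrocnemius muscle of mice kept on a stable or a repeatedly shifted light schedule. These were 10 of the 56951 symbols in the tables, each held by 1 row, and 9 of them were among the 12030 genes expressed highly enough to be tested. All mice were wild-type C57BL/6J males housed singly with a running wheel, and the gastrocnemius was collected together with the plantaris. Their schedules began at 14 weeks of age and ran for 64 weeks. The LD group (14 mice) stayed under 12 h of light and 12 h of darkness with lights on from 8:00 to 20:00, and the ADV group (16 mice) lived under the same cycle advanced by 8 h every 4 days. By the paper's methods, ADV mice were sampled when their lights also ran from 8:00 to 20:00. Each library was the poly(A) RNA of 1 mouse, and mice are named below by their group and label number. The schedule was the only labelled difference between the groups, the hour at which each mouse was killed was not used here, and only males of 1 strain were studied.

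Cells sense oxygen through hypoxia-inducible factors (HIF). Their alpha subunits, Hif1a and Epas1 (HIF-2alpha), are made continuously and are marked for destruction by oxygen-dependent prolyl hydroxylases, among them Egln1 (PHD2) and Egln3 (PHD3), so that the protein and not the mRNA carries most of the oxygen signal. When oxygen is low the alpha subunits persist, pair with Arnt and raise genes for sugar breakdown and blood vessel growth, including Vegfa, Adm, Ddit4 and Egln3 itself. Skeletal muscle fibers secrete Vegfa to maintain their capillaries, and the core clock protein Bmal1 belongs to the same family of transcription factors as the HIF subunits.

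HIF dimers bind the letters ACGTG or GCGTG, and the clock factors bind CACGTG, an E-box. Upstream windows of 250 bases, ending just before the annotated start, were read from the RefSeq promoters of GRCm38.p6 for 8 of the 10 genes, with 2 windows for Vegfa. The 4 windows below belong to the gene that passed the test between schedules (Vegfb), the gene that varied most between mice (Ddit4), the gene whose level followed the clock gene ratio most closely in LD mice (Adm) and the gene with an E-box (Hif1a). They are printed 5′ to 3′ on the strand of the gene, and capitals mark ACGTG or GCGTG, or the same letters read on the other strand.

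Vegfb (chr19:6987652-6987901, minus strand): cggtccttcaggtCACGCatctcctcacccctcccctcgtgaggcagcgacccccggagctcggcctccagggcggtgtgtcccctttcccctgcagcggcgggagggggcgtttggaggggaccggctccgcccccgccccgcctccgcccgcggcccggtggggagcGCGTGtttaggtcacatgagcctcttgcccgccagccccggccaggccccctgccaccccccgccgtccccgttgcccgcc

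Ddit4 (chr10:59951771-59952020, minus strand): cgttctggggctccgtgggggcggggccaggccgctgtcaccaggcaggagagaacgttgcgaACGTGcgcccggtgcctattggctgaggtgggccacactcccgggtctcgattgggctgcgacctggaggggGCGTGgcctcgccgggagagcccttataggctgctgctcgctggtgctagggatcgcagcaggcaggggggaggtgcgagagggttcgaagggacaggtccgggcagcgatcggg

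Adm (chr7:110627407-110627656, plus strand): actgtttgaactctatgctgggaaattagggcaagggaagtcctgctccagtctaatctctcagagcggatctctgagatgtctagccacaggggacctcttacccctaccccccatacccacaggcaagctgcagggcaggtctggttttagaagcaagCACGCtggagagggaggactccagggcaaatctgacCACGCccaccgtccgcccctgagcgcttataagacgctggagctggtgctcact

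Hif1a (chr12:73907617-73907866, plus strand): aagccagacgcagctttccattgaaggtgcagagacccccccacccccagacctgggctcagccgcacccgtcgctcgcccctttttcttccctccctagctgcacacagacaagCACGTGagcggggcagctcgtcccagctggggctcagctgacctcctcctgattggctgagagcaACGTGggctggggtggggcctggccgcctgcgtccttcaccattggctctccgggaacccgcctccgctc

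Counted from the base next to the start, the first base of the matches lay 237 and 81 bases upstream in Vegfb, 187 and 115 in Ddit4 and 90 and 54 in Adm. Hif1a had a match at 70 bases and the E-box CACGTG at 135, which holds ACGTG on both strands and therefore counted as overlapping matches at 135 and 134. At least 1 match to ACGTG or GCGTG on either strand was present in 7 of the 9 windows, against 38.6% of 32851 RefSeq promoters cut to the same 250 bases. The window of Apln held none. Of the 2 Vegfa windows, the one at chr17:46025164-46025413 held 2 matches. Both lie in a stretch that reads as Vegfa coding sequence, so this window is inside the gene. It is 1 of the 7 windows with a match counted above. The other, at chr17:46032378-46032627 and thus further upstream on the minus strand, held none. Which of these 2 starts is used in muscle was not tested. The E-box was found only in Hif1a among these windows, against 6.02% of all promoters. A match of letters is a description and not evidence of binding, and the windows for these genes are rich in G and C (50.8% in Egln3 to 86.0% in Egln1).

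Libraries held between 18875468.5 and 28512674 read pairs on exons, and the share of each library that fell on exons was 91.17 ± 0.12% (SD, n = 14) in LD and 91.53 ± 0.37% (SD, n = 16) in ADV. Markers of muscle fibers, such as Ckm and Acta1, were abundant in every library, with a summed level of 54018 to 68946 FPKM (fragments scaled to exon length and library total) in LD and 54615 to 69617 in ADV. The sum does not show the mix of fiber types. Myh2 ran from 83.4 to 1046 FPKM in LD and from 443 to 1445 in ADV, and Myh7 from 3.88 to 91.7 and from 15.7 to 233. The part of this mix in the levels below was not tested. None of the 8 fiber markers passed the test between schedules, nor did any of 7 leukocyte, 5 erythrocyte or 5 tested Schwann cell markers. Among markers of other cells, 3 of 12 endothelial markers were higher in ADV (Pecam1, Emcn and Eng), as were 1 of 10 pericyte and smooth muscle markers (Tagln) and 1 of 7 adipocyte markers (Fabp4), and 1 of 7 fibroblast markers was lower (Pdgfra). Over all genes tested, 5.61% were higher and 5.2% lower. The tissue is whole muscle, so fewer cells of a type and less RNA per cell cannot be told apart in any value below.

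The genes spanned a wide range of levels per length. In the LD group the mean level fell from Vegfa (86.7 ± 17.8 FPKM) through Egln1 (78.3 ± 6.80), Vegfb (65.5 ± 9.89), Epas1 (31.8 ± 4.18), Egln3 (24.03 ± 9.56), Ddit4 (10.2 ± 6.57), Hif1a (3.93 ± 0.56), Angpt1 (2.55 ± 0.81) and Adm (2.14 ± 0.44) to Apln (0.344 ± 0.103), each as mean ± SD with n = 14. The order of the means was the same in the ADV group. Neighbors in this order were not always apart within a mouse: Vegfa exceeded Egln1 in 10 of 14 LD mice, and Angpt1 exceeded Adm in 8 of 14 LD and 10 of 16 ADV mice. By contrast Vegfb exceeded Epas1, and Adm exceeded Apln, in every mouse of both groups. The Vegfa row of the tables covers only 639 bases, almost all of them coding, so its level per length rests on its coding exons, while rows such as that of Epas1 (5485 bases) include the untranslated parts.

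**Figure D1:**
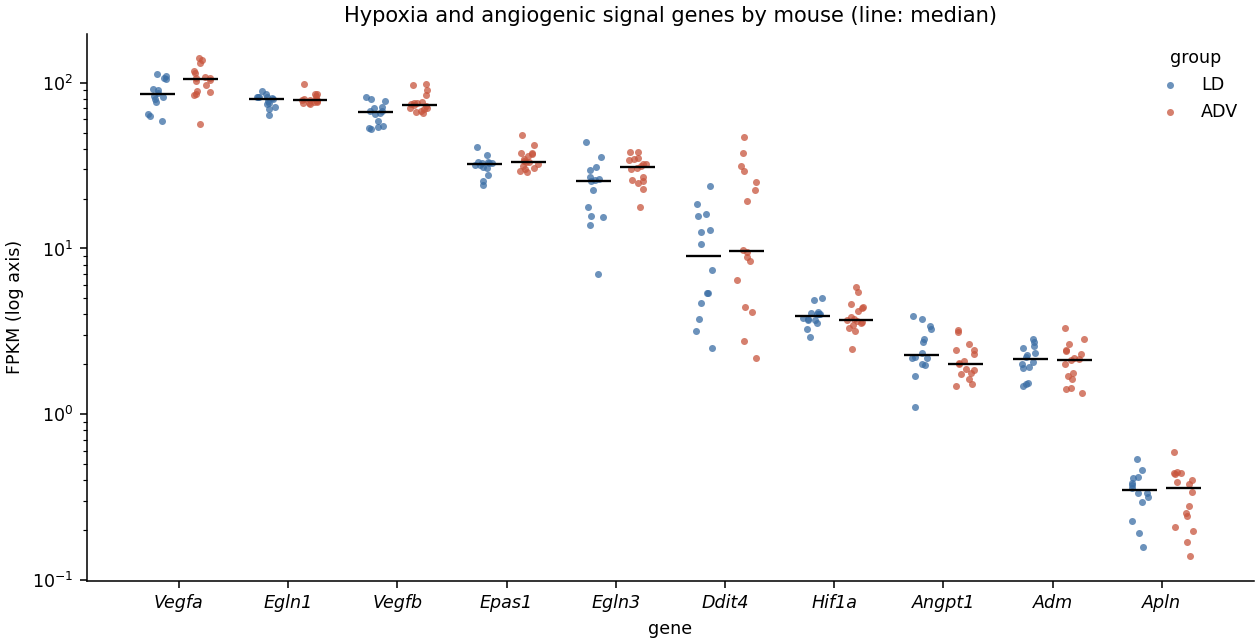
FPKM of each gene in each mouse on a log axis, with LD mice in blue, ADV mice in red and a line at the median of each group. The groups overlap for all 10 genes, and the points of Ddit4 are the most widely spread.

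The question of the main comparison was whether the shifted schedule changed the mRNA of these genes. Vegfb was the only one of the 9 genes tested to pass an FDR under 0.05 (edgeR quasi-likelihood test, Benjamini-Hochberg adjustment over all 12030 genes), and it was higher in ADV mice by 1.16-fold. Over all genes tested, 10.8% passed this threshold, 5.61% higher and 5.2% lower in ADV, so 1 of 9 is close to the background. None of the 9 was a differentially expressed gene (DEG) in the stricter sense that also requires a fold change over 1.3, which 2.09% of all genes met. On the log2 scale the median difference was 0.11 over the 9 genes and 0.00 over all genes tested, with 6 of the 9 values positive and 3 negative, and 2 genes (Vegfa and Vegfb) had an unadjusted p under 0.05.

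**Figure D2:**
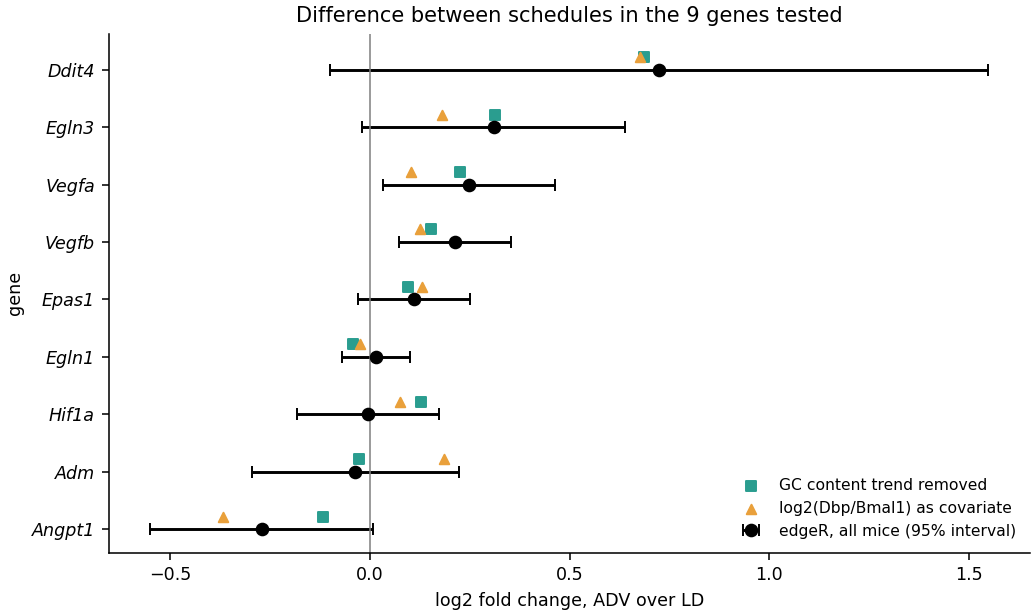
Log2 fold change of ADV over LD mice for the 9 genes tested. Black points with bars are the edgeR estimates and their 95% intervals, squares the estimates after removal of the GC content trend, and triangles the estimates with log2(Dbp/Bmal1) as a covariate. The interval of Vegfb runs from 0.07 to 0.35, and both alternatives move its estimate toward 0.

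Hif1a, the oxygen-regulated alpha subunit found in most cells, lies on chromosome 12 (73954678 to 73994304, GRCm39, plus strand, 15 exons). Its level was 2.94 FPKM in the lowest, 3.90 at the median and 5.04 in the highest LD mouse, and 2.48, 3.72 and 5.86 FPKM in the ADV group. The ADV values surrounded the LD values on both sides, and 6 of 16 ADV mice lay above the LD median. The log2 fold change was -0.01 (SE 0.09, 95% interval -0.18 to 0.17, edgeR FDR 0.974), and its sign turned with the scaling (0.01 with library size alone, 0.13 after removal of the GC content trend, 0.08 with the clock gene ratio as covariate).

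Epas1, the alpha subunit that is prominent in endothelium and that is located on chromosome 17 (87061128 to 87140838, plus strand, 16 exons), was more abundant per length than Hif1a in every mouse. It ranged from 24.2 through a median of 32.3 to 40.7 FPKM in LD and from 28.8 through 33.4 to 48.4 FPKM in ADV. The ADV mice started higher and reached higher, but 10 of 16 lay above the LD median and the ranges shared most of their span. The log2 fold change was 0.11 (SE 0.07, 95% interval -0.03 to 0.25, edgeR FDR 0.279). The ratio of Epas1 to Hif1a had a median of 8.11 (range 6.70 to 11.2) in LD and 8.83 (6.11 to 11.6) in ADV mice.

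Egln1, the main hydroxylase that limits HIF in normal oxygen (chromosome 8, 125635326 to 125676063, minus strand, 5 exons), was the steadiest of the genes. It ran from 63.9 through 80.1 to 89.2 FPKM in LD and from 74.3 through 78.5 to 97.5 FPKM in ADV, so that the medians nearly coincided and 5 of 16 ADV mice were above the LD median. Its log2 fold change of 0.02 (SE 0.04) had a 95% interval from -0.07 to 0.10 and an edgeR FDR of 0.840, and it was -0.04 after removal of the GC content trend and -0.02 with the clock gene ratio as covariate.

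Egln3, a hydroxylase that HIF itself induces and that is found at high levels in muscle (chromosome 12, 54225767 to 54250646, minus strand, 5 exons), varied far more. It was at 7.02, 25.6 and 43.6 FPKM in the lowest, median and highest LD mouse and at 17.7, 31.03 and 38.4 FPKM in ADV mice. The LD group held both the lowest and the highest mouse, with a coefficient of variation of 39.8% in LD and 19.1% in ADV, a difference in spread that was not tested. The mean level was 24.03 ± 9.56 FPKM in LD and 30.1 ± 5.74 in ADV, 12 of 16 ADV mice were above the LD median, and the log2 fold change of 0.31 (SE 0.16) had an interval from -0.02 to 0.64 and an edgeR FDR of 0.194, and was 0.18 with the clock gene ratio as covariate. The lowest mouse, LD 23, also had the lowest Epas1 of its group, and its ratio of Egln1 to Egln3 was 9.84 against an LD median of 3.27 and an ADV median of 2.62 (range 1.99 to 4.20).

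Vegfa, the main growth and survival signal for capillary endothelium, is on chromosome 17 (46329757 to 46342282, minus strand, 8 exons). It was measured at 58.4 FPKM in the lowest LD mouse, 85.3 at the median and 113 in the highest, and at 56.1, 105 and 140 FPKM in ADV mice. Although 14 of 16 ADV mice exceeded the LD median and 5 exceeded every LD mouse, the lowest value of all came from ADV 22. Mean levels of 86.7 ± 17.8 and 104 ± 21.6 FPKM gave a log2 fold change of 0.25 (SE 0.11, 95% interval 0.03 to 0.46), with an unadjusted p of 0.0253 and an edgeR FDR of 0.113. Without ADV 22 the log2 fold change was 0.29 and the edgeR FDR 0.0431, and in the other 29 fits that each left out 1 mouse the FDR was over 0.05. With the clock gene ratio as covariate the log2 fold change was 0.10 (SE 0.14, unadjusted p 0.473, edgeR FDR 0.765).

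Vegfb, a relative of Vegfa that binds Flt1 and is linked to fatty acid use in muscle and heart, lies on chromosome 19 (6959841 to 6964997, minus strand, 7 exons). It was at 52.4, 66.2 and 82.3 FPKM in the lowest, median and highest LD mouse and at 65.9, 73.7 and 98.8 FPKM in ADV mice. In words, 14 of 16 ADV mice were above the LD median and 4 (ADV 24, 25, 31 and 34) were above every LD mouse, while the rest lay inside the LD range. The means were 65.5 ± 9.89 and 76.7 ± 10.5 FPKM, and the log2 fold change of 0.21 (SE 0.07, 95% interval 0.07 to 0.35) had an unadjusted p of 0.00424 and an edgeR FDR of 0.0433.

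The Vegfb call stood close to its threshold. It was also made by DESeq2 (adjusted p = 0.0291), which called 14% of all genes and Vegfb alone among the 9. Leaving out 1 mouse at a time gave a log2 fold change of 0.19 to 0.24 and an edgeR FDR of 0.0234 to 0.0787, over 0.05 in 14 of 30 fits. The mice whose removal ended the call were LD 23, 26, 27, 28, 29, 30, 33, 34 and 35 and ADV 24, 25, 31, 32 and 34. Vegfb transcripts have a GC content of 57.2%, against a median of 50.4% over the genes tested, and a correction for the GC trend in every library left a log2 fold change of 0.15 with an edgeR FDR of 0.495, in a fit that called 0.756% of all genes. With log2(Dbp/Bmal1) as a covariate it was 0.13 (SE 0.09) with an edgeR FDR of 0.556, in a fit that called 0 genes and 0% of those tested. This ratio itself differed between the groups, with a mean of 1.19 in LD and -0.94 in ADV. The covariate fit therefore cannot tell schedule and ratio well apart. With library size alone as the scaling, 775 genes were called higher and 466 lower in ADV, against 675 and 626 with TMM scaling, and limma on log2(FPKM + 0.1) called 860 higher and 448 lower, while Vegfb was called in all of these.

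The summed level of the 12 endothelial markers was higher at its median in ADV mice. It ranged from 97.0 to 136 FPKM (median 117) in LD and from 113 to 153 FPKM (median 127) in ADV. Of the 12 markers 3 (25%) were called higher, against 5.61% of all genes tested. They were Eng, by 0.38, Emcn, by 0.27, and Pecam1, by 0.16 on the log2 scale (edgeR FDR 0.00537, 0.00945 and 0.0323). These calls were read from the edgeR fit of all mice alone, without the alternatives applied to Vegfb. The others were not called and ran from -0.17 for Vwf (edgeR FDR 0.153) to 0.25 for Sox17 (edgeR FDR 0.147). Vwf and Esam (-0.02) were below 0, and the list median was 0.12. The part of these cells in the levels of Epas1, Vegfa and Vegfb was not tested.

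Angpt1, which signals through the receptor Tek to stabilize vessels, spans 42288119 to 42540373 on chromosome 15 (minus strand, 9 exons). It ranged from 1.11 through 2.29 to 3.92 FPKM in LD and from 1.47 through 2.02 to 3.23 FPKM in ADV. Here the ADV values sat inside the LD range, with 6 of 16 above the LD median. The log2 fold change of -0.27 (SE 0.14, 95% interval -0.55 to 0.01) had an edgeR FDR of 0.180, and it was -0.12 after removal of the GC content trend and -0.16 with limma on log2(FPKM + 1).

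Adm encodes adrenomedullin, a peptide that widens vessels, from chromosome 7 (110226868 to 110229027, plus strand, 4 exons). With a mean of 71.9 reads per library it was at 1.47, 2.15 and 2.86 FPKM in the lowest, median and highest LD mouse and at 1.34, 2.14 and 3.32 FPKM in ADV mice. The medians nearly coincided and 8 of 16 ADV mice were above that of LD. Its log2 fold change was -0.04 (SE 0.13, 95% interval -0.30 to 0.22, edgeR FDR 0.874), and 0.19 with the clock gene ratio as covariate.

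Apln, the ligand of the receptor Aplnr on endothelium (chromosome X, 47114023 to 47123730, minus strand, 3 exons), was near the limit of detection. It had 11 to 40.5 reads per library and 0.159, 0.348 and 0.537 FPKM in the lowest, median and highest LD mouse, against 0.140, 0.359 and 0.595 FPKM in ADV mice. The ranges of both groups were almost the same. Its mean level of 0.339 FPKM kept it out of the main test, and without a filter its log2 difference was -0.05 (SE 0.18, 95% interval -0.41 to 0.31, edgeR FDR 0.915).

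Ddit4 (REDD1), an inhibitor of the growth kinase complex mTORC1 that rises with hypoxia, glucocorticoids and energy stress, is on chromosome 10 (59785491 to 59787656, minus strand, 3 exons). It had the widest spread, from 2.51 through 8.98 to 23.7 FPKM in LD and from 2.18 through 9.64 to 47.3 FPKM in ADV, so that the highest mouse exceeded the lowest 9.42-fold in LD and 21.7-fold in ADV. The medians were close, while the ADV values were split at their widest gap on the log2 scale into 9 mice at or below 9.73 FPKM and 7 mice at or above 19.2 FPKM (ADV 22, 24, 25, 30, 31, 34 and 35), 5 of them above every LD mouse. The widest gap on the log2 scale in LD lay between 7.38 and 10.6 FPKM, with 7 mice on each side, and measured 0.52 against 0.98 in ADV. The means of 10.2 ± 6.57 and 16.8 ± 13.9 FPKM gave a fold change of 1.65 and a log2 fold change of 0.72 (SE 0.40) whose interval from -0.10 to 1.55 included 0 (edgeR FDR 0.224). It was 0.32 with the label number as a replicate block (0.60 in the same 28 libraries without it) and 0.46 with limma on log2(FPKM + 1). These gaps describe the values and were not used to group mice.

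The annotation bears on how cleanly some of these genes were counted. The strand setting of the authors' counting is not given in the sources used here. In GENCODE vM39 a gene on the other strand overlaps 20.8% of the exon bases of Adm (Gm72687), 18.7% of those of Angpt1 (Gm17473) and 4.85% of those of Hif1a (Gm15283). Without strand, reads of these pairs could not be told apart.

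Some mice stood at the edge of their group for several genes, both in FPKM and in TMM-scaled log2 CPM. LD 29 was highest for Hif1a, Epas1 and Egln3, ADV 24 for Hif1a and Epas1, and ADV 30 for Adm and Ddit4. At the other end, LD 33 was lowest for Vegfa, Egln1 and Angpt1, LD 23 for Epas1 and Egln3, and ADV 23 for Vegfb and Egln3. Other edges depended on the scale, since ADV 24 had the highest Vegfa and Angpt1 in FPKM but not in log2 CPM.

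Within the groups most pairs of the genes had a positive correlation across mice. Over the 36 pairs of the 9 genes, Pearson's r of log2 CPM (counts scaled to library size) deviations from the group means over 30 libraries had a median of 0.33, was positive in 32 pairs and exceeded 0.5 in 9. These values are given as descriptions, since the libraries share depth and composition and pairs of other genes were not summarized beside them. Over all 30 libraries the closest pair was the ligand Vegfb with the hydroxylase Egln1, with an r of 0.72 in each group. Epas1 and Egln3 had an r of 0.83 in LD and 0.46 in ADV, and Vegfb and Egln3 of 0.81 and 0.36. The 2 alpha subunits, Hif1a and Epas1, had an r of 0.48 in LD and 0.65 in ADV, while Vegfa and Vegfb had an r of 0.56 and 0.03. The lowest r over all 30, between Adm and Angpt1, was -0.27, from -0.60 in LD and 0.05 in ADV. None of these contrasts between groups was tested.

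**Figure D3:**
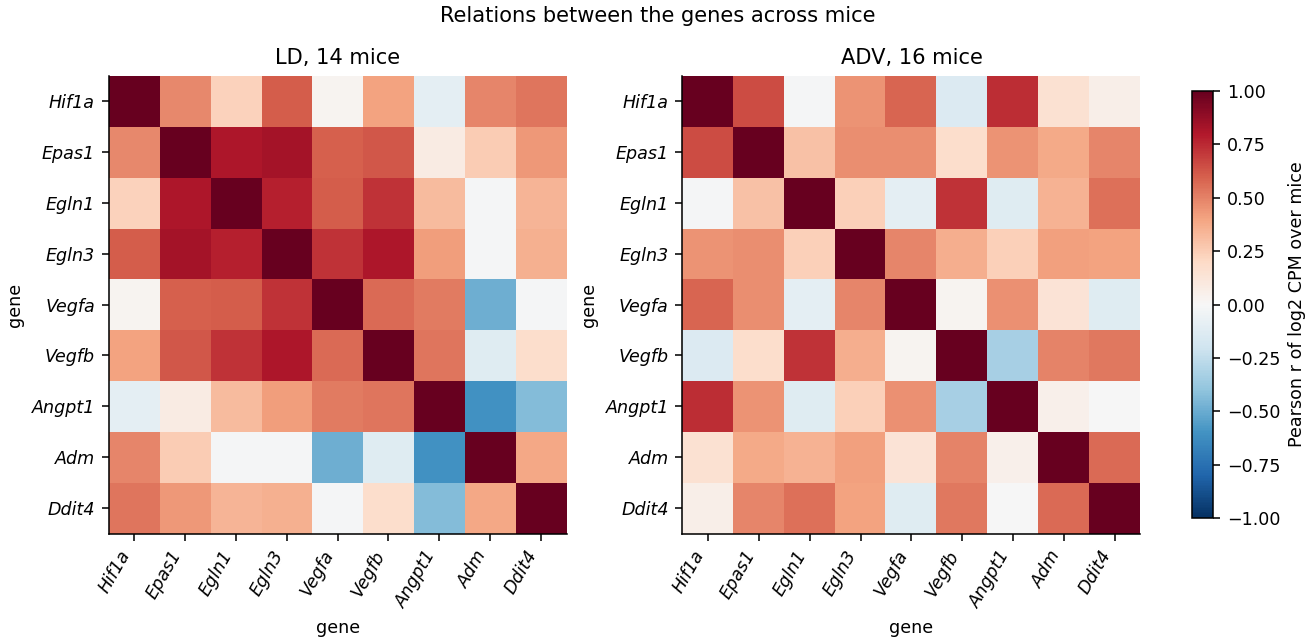
Pearson's r of log2 CPM between each pair of the 9 genes, over 14 LD mice (left) and 16 ADV mice (right), with red for positive and blue for negative values. A block of high values joins Epas1, Egln1, Egln3, Vegfa and Vegfb in LD mice, with r between Epas1 and Egln3 of 0.83 in LD and 0.46 in ADV.

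Among all genes tested, those most like each member in this measure were of different kinds. Epas1 was closest to Flt1, a VEGF receptor of endothelium (r = 0.92 over 30 libraries), and to Ogdh, an enzyme of the citric acid cycle (0.87). Vegfb was closest to Atp5f1b and Cox7b, parts of the mitochondrial ATP synthase and cytochrome c oxidase (0.94 and 0.93), and Egln1 to Chchd3 and Ndufv2, also mitochondrial (0.85 and 0.84). Egln3 was closest to Ldhb and Bdh1, enzymes of lactate and ketone body use (0.91 and 0.90). Ddit4 went with Tob2 and Arrdc2 (both 0.90), Vegfa with Dapp1 and Plpp1 (both 0.81), Hif1a with Appbp2 (0.81) and Parp4 (0.80), Angpt1 with Kif3a (0.80), and Adm with Plin4 (0.73) and Tbc1d22a (0.71).

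The second question was whether these genes follow the phase of the muscle clock, read as the ratio of Dbp to Bmal1, which peak at different times of day. The log2 ratio of their FPKM was 1.19 ± 1.43 (SD, n = 14) in LD mice, from -2.14 through a median of 1.29 to 3.31, and -0.94 ± 0.89 (SD, n = 16) in ADV mice, from -2.44 through -1.03 to 1.40. Dbp was at 26.8 ± 14.5 FPKM in LD and 8.603 ± 3.39 in ADV, and Bmal1 at 10.2 ± 3.14 and 16.1 ± 4.07. The mean ratio was thus lower in ADV mice, with 7 LD and 15 ADV mice inside the range of the other group, and relations were computed within each group.

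None of the 9 genes was related to the ratio with an FDR under 0.05 in either group (permutation tests of Pearson's r and Spearman's rho with 100000 permutations, adjusted over 12028 genes). In LD mice 1 of 9 had an unadjusted p under 0.05 for r and 2 of 9 for rho, against 13.3% and 16.9% of all genes, and in ADV mice 0 of 9 for either, against 5.35% and 7.27%. Passing the FDR were 0 genes for r and 19 (0.158%) for rho in LD, and 0 for both in ADV. In edgeR's slope fits 6 genes (0.0499%) passed in LD and 1 (0.00831%) in ADV, none of them a member.

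Adm, the vasodilator peptide, came closest. In LD mice its level against the ratio of Dbp to Bmal1 gave r = 0.63 (permutation p = 0.0141, FDR 0.253) and rho = 0.83 (permutation p = 0.0003, FDR 0.0573), and r was 0.79 without LD 34 and LD 30, the 2 mice farthest from the median ratio. The fitted slope was 0.14 log2 units per log2 unit of the ratio (SE 0.05, edgeR FDR 0.192). In ADV mice r was 0.01 (permutation p = 0.976) and rho 0.16 (permutation p = 0.556), and r was 0.30 without ADV 21 and ADV 31. The slopes of both groups did not differ beyond their error (difference -0.14, SE 0.12, unadjusted p 0.248, edgeR FDR 0.756), and the difference was -0.03 with Nr1d1/Npas2 in place of Dbp/Bmal1, so the relation cannot be called particular to LD mice.

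Vegfa had the opposite sign in LD mice, with r = -0.44 (permutation p = 0.115, FDR 0.509), -0.58 without LD 34 and LD 30, and rho = -0.61 (permutation p = 0.0229, FDR 0.204). In ADV mice its r was -0.02 (permutation p = 0.952) and its rho 0.09 (permutation p = 0.736). Vegfb had r = -0.14 (permutation p = 0.642) in LD and -0.39 (permutation p = 0.138) in ADV, and the latter rests on the 2 extreme mice, since r was 0.01 without ADV 21 and ADV 31. Angpt1 had r = -0.47 (permutation p = 0.0906, -0.42 without the extreme mice) in LD and 0.42 (permutation p = 0.102, 0.07 without them) in ADV. Its slopes differed by 0.32 (SE 0.12, unadjusted p 0.0103), which did not pass over all genes (edgeR FDR 0.289), where 0 of 12028 slope differences did.

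**Figure D4:**
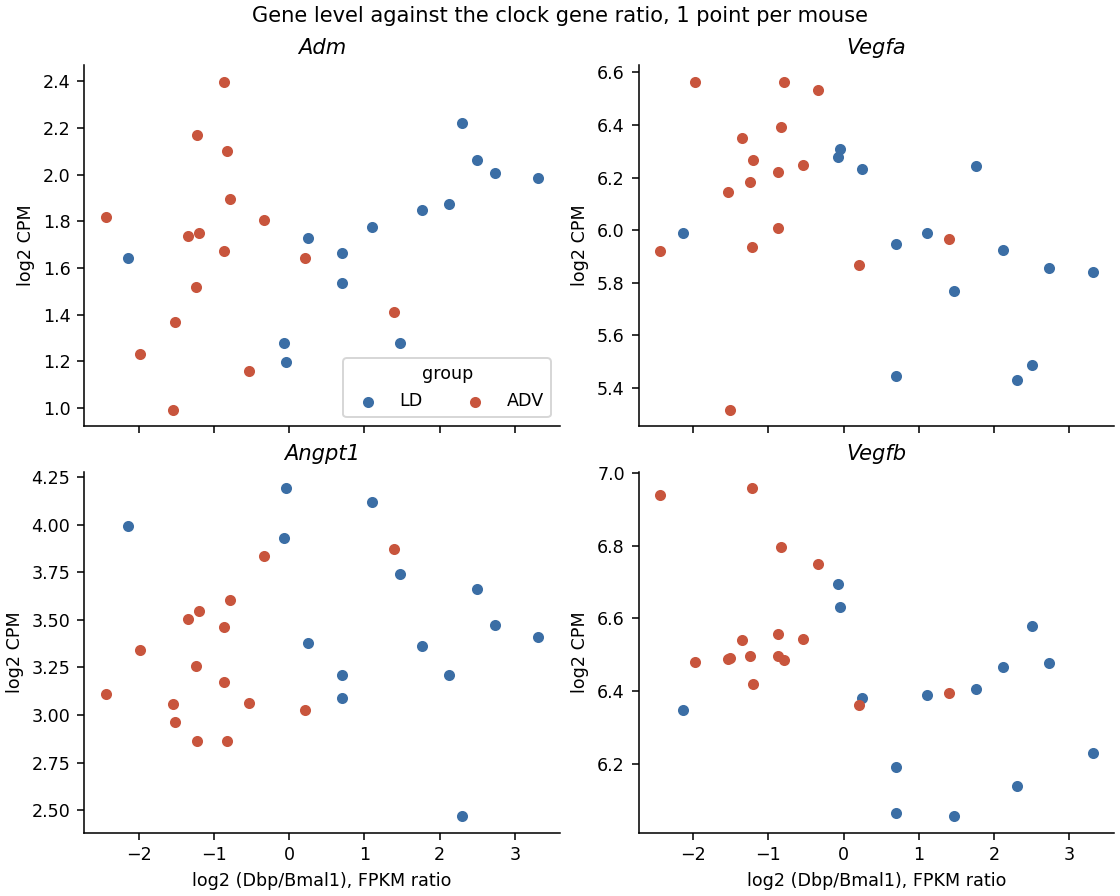
Log2 CPM of Adm, Vegfa, Angpt1 and Vegfb against log2(Dbp/Bmal1) in each mouse, with LD mice in blue and ADV mice in red. For Adm r is 0.63 over the LD points and 0.01 over the ADV points, and for Vegfa it is -0.44 and -0.02.

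The remaining genes had unadjusted p values over 0.05 in both groups. Hif1a had r = 0.38 (permutation p = 0.177, 0.52 without the extreme mice) in LD and -0.0025 (permutation p = 0.992, 0.20 without them) in ADV, and Egln1 -0.05 (permutation p = 0.874) in LD and -0.44 (permutation p = 0.0941, -0.28 without them) in ADV. Epas1 had r = 0.11 in LD and -0.03 in ADV (0.15 and 0.34 without the extreme mice), and Egln3 -0.09 and -0.32 (0.04 and -0.17 without them). Ddit4, the most variable gene, had r = 0.13 in LD mice (permutation p = 0.650, 0.30 without the extreme mice) and -0.16 in ADV mice (permutation p = 0.565, -0.04 without them).

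Genes that work with the members were read from 5 lists, of which 12 of 84 tested genes passed the FDR in the comparison of schedules, against the 10.8% of all genes given above. Among 15 tested oxygen sensing regulators 3 passed: Siah2, a ubiquitin ligase that degrades prolyl hydroxylases, rose by 0.49 (3.25 ± 0.73 to 4.62 ± 1.10 FPKM, edgeR FDR 0.00805), Arnt2, a partner of the alpha subunits, rose by 0.37 (edgeR FDR 0.0197) from a low level of 0.474 FPKM, and Cul2, the scaffold of the VHL ubiquitin ligase, fell by 0.16 (edgeR FDR 0.0440). The 3 made up 20% of those tested, and the median of the list was -0.02. Arnt, the usual HIF partner, was at 13.99 ± 0.80 and 13.8 ± 1.58 FPKM (log2 fold change -0.04, edgeR FDR 0.603).

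Of 35 tested HIF target genes 2 were higher and 4 lower, together 17.1% against 10.8% of all genes, and the median was 0.04. The 4 largest were Cdkn1a, a cell cycle inhibitor that p53 also induces (log2 fold change 0.95, from 10.6 ± 3.78 to 20.7 ± 14.6 FPKM, edgeR FDR 0.0241), Pfkfb3, a driver of glycolysis (-0.81, from 59.9 ± 31.05 to 34.4 ± 18.6 FPKM, edgeR FDR 0.0452), Bhlhe40, a repressor that is also a clock component (-0.64, from 35.3 ± 7.47 to 23.04 ± 6.29 FPKM, edgeR FDR 0.00152), and Tfrc, the receptor for iron-loaded transferrin (-0.55, from 19.9 ± 6.01 to 13.7 ± 4.21 FPKM, edgeR FDR 0.0206). The other two, named after their values were seen, were the glucose transporter Slc2a1 (0.40, edgeR FDR 0.0121) and the histone demethylase Kdm3a (-0.22, edgeR FDR 0.0316). The targets thus moved in both directions, and most of them, like most of the members, did not pass the test.

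The shares of tested ligands (9.09%) and receptors (8.33%) that passed were near the 10.8% of all genes. Of 11 tested angiogenic ligands Thbs1, which opposes vessel growth, was the only one called, higher by 0.79 (2.87 ± 1.01 to 5.02 ± 2.89 FPKM, edgeR FDR 0.0311), and the list median was 0.06. Among 12 tested receptors Ramp1, a partner of the adrenomedullin and CGRP receptor Calcrl, was higher by 0.32 (9.19 ± 1.84 to 11.6 ± 2.44 FPKM, edgeR FDR 0.0367), with a list median of 0.03. Among VEGF receptors the log2 fold change was 0.25 for Kdr (edgeR FDR 0.187) and 0.01 for Flt1 (edgeR FDR 0.935), and the values were 0.08 for Aplnr (edgeR FDR 0.810) and -0.20 for Calcrl (edgeR FDR 0.284). Of 11 brakes on mTORC1 that act beside Ddit4, Deptor alone was called, at -0.23 on the log2 scale (edgeR FDR 0.0429), and the list median was -0.03.

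Several of these calls stood close to the threshold and were lost when any of a number of mice was left out. Arnt2, Bhlhe40, Cdkn1a, Siah2, Slc2a1 and Tfrc passed in all 30 fits that each left out 1 mouse, whereas Pfkfb3 was over the threshold in 19 fits (without LD 21, 23, 26, 27, 28, 30, 33 or 34, or ADV 24, 25, 26, 27, 28, 29, 30, 31, 32, 34 or 36). Cul2 was over it in 17 (without LD 21, 22, 27, 28, 29, 30, 31, 32, 34 or 36, or ADV 24, 25, 27, 28, 33, 34 or 35), Deptor in 16 (without LD 21, 23, 27, 28, 30, 32, 33 or 34, or ADV 21, 24, 25, 29, 31, 32, 34 or 35) and Ramp1 in 11 (without LD 23, 28, 30, 32, 33, 35 or 36, or ADV 24, 25, 33 or 34). Thbs1 was over it in 5 (without LD 28, LD 30, ADV 24, ADV 25 or ADV 29) and Kdm3a in 3 (without LD 29, LD 32 or LD 33). After removal of the GC content trend 1 of the 12, Bhlhe40, still passed (log2 fold change -0.64, edgeR FDR 0.00364), and with the clock gene ratio as covariate 0 did.

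**Figure D5:**
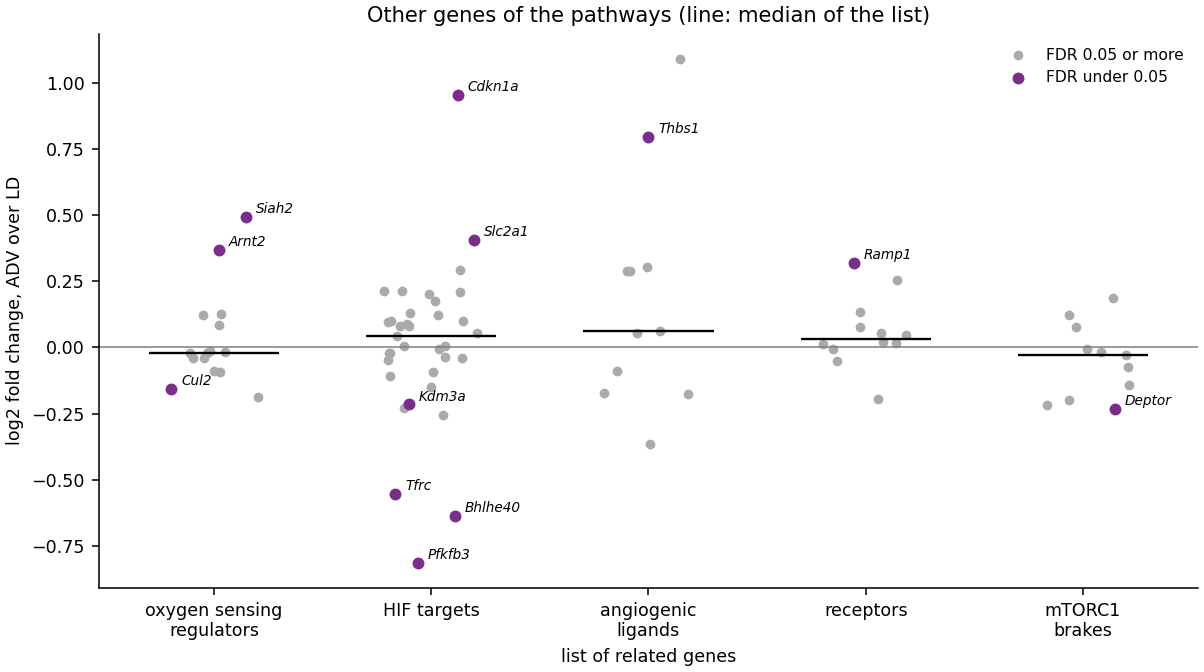
Log2 fold change of ADV over LD mice for each tested gene of the 5 lists, with a line at the list median and purple points, named, for an FDR under 0.05. The 12 purple points lie on both sides of 0, and all list medians lie between -0.03 and 0.06.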

How the data were processed

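Gastrocnemius RNA of 14 LD and 16 ADV mice was read from paired-end, stranded libraries. The authors used Trimmomatic for trimming and STAR (2.7.10a in the submitters' processing notes) for alignment to GRCm39, dropped reads with a mapping quality under 10 and counted exon reads of UCSC known canonical transcripts with HOMER (4.11). The authors deposited these as estimated counts, without normalization, and as FPKM, which equal the count divided by length and library total within 5.0e-04. HOMER counts each mate as 0.5 read, so 14.8% of the deposited values held a fraction and each was rounded to a whole number. The tables hold 57186 rows, 1 per transcript, and the longest row with a mean over 20 reads was used per symbol. As in the study's methods, testing required a mean above 20 reads and above 0.5 FPKM.

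The groups were contrasted by the quasi-likelihood test of edgeR 4.0.16 after TMM scaling (R 4.3.3), with an FDR by Benjamini-Hochberg adjustment over all genes tested. log2 CPM used a prior count of 2. Relations to log2(Dbp/Bmal1) used two-sided permutation tests over mice (scipy 1.17.1), and slopes and their difference used edgeR. DESeq2 1.42.0, limma 3.58.1 on log2(FPKM + 0.1) and log2(FPKM + 1), other size factors and filters, summed rows, the label number as a replicate block, the clock ratio as covariate, a GC content offset (natural spline, 4 degrees of freedom, GENCODE vM39 transcripts), the ratio Nr1d1/Npas2 and leaving out each mouse were alternatives. The edgeR fits of the group difference and the slope difference and the permutation test of Pearson's r were tested on simulated data. The alternatives were not. No library repeated another: chi-square over its degrees of freedom was at least 10.6 for every pair within a group.

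The members, lists and tests were chosen with earlier results of these data known. All members, the called list genes with the 4 largest differences per list, 5 partners (Arnt, Kdr, Flt1, Aplnr and Calcrl) and the 2 genes most like each member are named, except 1 gene beside Angpt1 that is not reported here, and Slc2a1 and Kdm3a were added after their values were seen. The FPKM of a gene with few reads, such as Apln, carries a large counting error. Counts, not FPKM, were used for all main tests.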

Additional observations from a re-analysis of the deposited data

How the results depend on the processing

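The count of 1 member called between schedules became 0 with a fold change limit of 1.3, with no filter on low genes, with the replicate block, in the 28 libraries with shared label numbers and no replicate block, with the clock gene ratio as covariate and with the GC content trend removed, and lay between 0 and 2 when 1 mouse was left out. Vegfb then had an edgeR FDR of 0.0907 with no filter, 0.0994 with the replicate block and 0.112 in the same 28 libraries without it, and stayed under 0.05 with the other 7 tools, scalings and filters. Over 14 shared label numbers the correlation of deviations from the group means ran from -0.26 to 0.43 with a median of 0.01, and 6 exceeded 0.1. Whether the label numbers carry a shared order or batch was not tested, and these correlations cannot decide it. Over all genes the replicate block left 494 calls and the 28 libraries without it 616, against 1301.

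The count of 12 list genes became 7 with limma at either pseudocount, 6 with no filter, 2 with the replicate block, 5 in the 28 libraries without it, 0 with the covariate and 1 with the GC content trend removed, and lay between 7 and 14 when 1 mouse was left out, at 7 without LD 28, LD 30, ADV 24 or ADV 25. The cause of these changes was not tested.

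Several signs turned. The log2 fold change became 0.19 for Adm, -0.024 for Egln1 and 0.076 for Hif1a with the covariate, -0.042 for Egln1 and 0.13 for Hif1a with the GC content trend removed, and 0.0080 for Hif1a with library size alone. When 1 mouse was left out it ran from -0.097 to 0.011 for Adm, -0.0050 to 0.032 for Egln1 and -0.047 to 0.030 for Hif1a. Relations to the clock gene ratio changed sign for Egln1 in LD (rho 0.029, and r 0.12 with Nr1d1/Npas2) and in ADV for Epas1 (rho 0.14), Vegfa (rho 0.091, r 0.0021 with FPKM and 0.011 with Nr1d1/Npas2), Hif1a (r 0.017 with FPKM), Egln3 (r 0.038 with Nr1d1/Npas2) and Adm (edgeR slope -0.0064). Without the 2 mice of extreme ratio r changed sign for Egln3 (0.036) and Egln1 (0.056) in LD and for Hif1a (0.20), Epas1 (0.34), Vegfa (0.021) and Vegfb (0.0059) in ADV. The Egln3 slope difference was -0.054, and 0.053 with Nr1d1/Npas2. Counts of 11 to 40.5 reads limit Apln, and a mean of 71.9 reads limits Adm.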
